A study of Mus musculus with 10 samples.

Results

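The nuclear RNA polymerases are built from subunits whose genes carry the symbols Polr1, Polr2 and Polr3 followed by a letter. A gene was taken as a member when its only platform symbol had that form, and where a gene had several probe sets, the one with the highest average signal on the 10 arrays stood for it. The rule found 27 of the 22180 genes on the array. Of these, 26 encode subunits and 1, Polr2d-ps2, is a pseudogene that is described on its own. The rule reads names and no difference between the groups. The samples were sorted mouse regulatory T (Treg) cells, which carry the transcription factor Foxp3 and hold other immune cells in check. There were 5 wild type (WT) arrays and 5 arrays of LKB1-deficient cells, titled as a deletion of Stk11, the gene that encodes the protein kinase LKB1. Both genotypes were sorted from mixed bone marrow chimeras, in which donor marrow of more than 1 origin reconstitutes a host, and were lysed with no culture in between; the labels name no treatment. How the deletion was driven, which exons it removed, the age of the animals, the host strain and the number of animals behind a sample were not stated in the labels. Whether the 5 samples of a group came from separate animals is therefore open, and the p-values reflect sample-to-sample spread that may be technical.

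RNA polymerase I transcribes the large ribosomal RNA precursor in the nucleolus, RNA polymerase II transcribes messenger RNA and many small nuclear RNAs, and RNA polymerase III transcribes transfer RNA, 5S ribosomal RNA and other short RNAs. Each enzyme has a catalytic core of large subunits, an assembly platform, a stalk and peripheral subunits that act in initiation and termination. Some small subunits are common to all of them, and the platform subunits encoded by Polr1c and Polr1d serve polymerases I and III. In activated T cells ribosome production and growth draw on polymerases I and III, while most regulated genes are read by polymerase II. By this composition 3 of the 26 members belonged to polymerase I alone (Polr1a, Polr1b and Polr1e), 8 to polymerase II alone (Polr2a, Polr2b, Polr2c, Polr2d, Polr2g, Polr2i, Polr2j and Polr2m), 9 to polymerase III alone (Polr3a, Polr3b, Polr3c, Polr3d, Polr3e, Polr3f, Polr3g, Polr3gl and Polr3k) and 6 to more than 1 enzyme (Polr1c, Polr1d, Polr2e, Polr2f, Polr2k and Polr2l). The subunit gene Polr2h was not analysed here, and 4 further subunits under other symbols are given below beside the members.

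All values are log2 signals after robust multi-array averaging, so a difference of 1 is a doubling, and levels of different probe sets were not compared. The median signal of an array was 4.83 to 4.86 in WT and 4.88 to 4.94 in LKB1-deficient samples. Stk11 had 3 of 5 LKB1-deficient arrays below the lowest WT array at 6.61, with array 1 at 6.57, array 2 at 6.01 and array 3 at 6.05. Arrays 4 and 5, at 6.71 and 6.78, were within the WT range. The Stk11 mean was 6.78 ± 0.15 (SD, n = 5) for WT and 6.42 ± 0.37 for LKB1-deficient arrays (SD, n = 5; limma adjusted p = 0.335). The Treg markers Foxp3, Il2ra, Ctla4 and Ikzf2, 4 of 4 measured, had a mean level of 10.48 to 10.60 on WT arrays and 9.63 to 10.78 on LKB1-deficient arrays, with array 1 the lowest. The T cell list, 8 of 10 measured, ranged from 10.79 to 10.84 and from 10.58 to 10.85. Of these 8 genes, 6 had estimates below 0 and 2 above. Lower without overlap were 2 of the 8, against 3.71% of all genes. They were Cd3d (-0.21, limma adjusted p = 0.285) and Zap70 (-0.28, limma adjusted p = 0.188). Markers of macrophages and dendritic cells, 14 of 14 measured, had mean levels of 6.82 to 7.23 on WT arrays and 6.87 to 9.66 on LKB1-deficient arrays, where arrays 4 and 5 were at 9.57 and 9.66. The B and plasma cell list, 9 of 10 measured, ranged from 4.95 to 5.36 and from 5.17 to 6.40, and the natural killer (NK) cell list, 7 of 7 measured, from 5.35 to 5.42 and from 5.38 to 6.33, with LKB1-deficient arrays 1, 4 and 5 the highest in both. The NK list did not move as 1, with 6 estimates above 0 and 1 below. Klrd1 was higher without overlap (1.53, limma adjusted p = 0.017), and Nkg7 was lower without overlap (-0.84, limma adjusted p = 0.0236). Of 4 listed erythroid markers 0 were measured. The scale is logarithmic with no detection calls, so no marker can be read as absent.

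No subunit gene passed the test across all genes, while most of the estimates lay below 0. Of the 26 subunit genes, limma called 0 lower and 0 higher at an adjusted p under 0.05, against 0.83% and 0.234% of all 22180 genes, 1.06% in either direction. With array medians subtracted 2 members were called lower (Polr1b and Polr3e) and 0 higher, against 1.64% and 0.234% of all genes. With array quality weights 1 was called lower (Polr1b) and 0 higher, against 1.48% and 0.609%. Without LKB1-deficient array 1, 1 was called lower (Polr1b) and 0 higher, against 1.53% and 0.812%. After a second quantile normalization 0 were called, against 0.464% lower and 0.302% higher. At an unadjusted p under 0.05, 10 of 26 were below WT and 0 above, against 8.8% and 5.19% of all genes. The first count depended on the arrays and the scaling. It was 6 without WT array 1 (against 7.52% of all genes), 6 after a second quantile normalization (7.39%) and 15 with array medians subtracted (12.5%). For replicates 1 to 3 alone it was 4 and for replicates 4 and 5 alone 1, against 6.21% and 6.66%. The estimate was below 0 for 21 of 26 members and for 49.2% of all genes. Brighter genes were shifted in the same direction: above the dimmest 40% of genes, where the 26 members lay, 58.2% of estimates were below 0 and 13.7% were below WT at an unadjusted p under 0.05. The median difference of the members was -0.21, beside 0.00342 over all genes and -0.041 over the brighter ones. Single estimates ran from -0.44 for Polr1b to 0.22 for Polr2d. In bulk samples such as these, fewer cells of a type and less RNA per cell cannot be told apart. The higher mean marker levels of other cell types on LKB1-deficient arrays 1, 4 and 5 moved with the group, and their part in these counts was not tested. Without those 3 arrays, 21 of 26 estimates were below 0, against 50.2% of all genes. At an unadjusted p under 0.05, 8 members were below WT, against 8.13% of all genes. Called members numbered 0, against 0.915% of all genes lower and 0.694% higher.

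**Figure D1:**
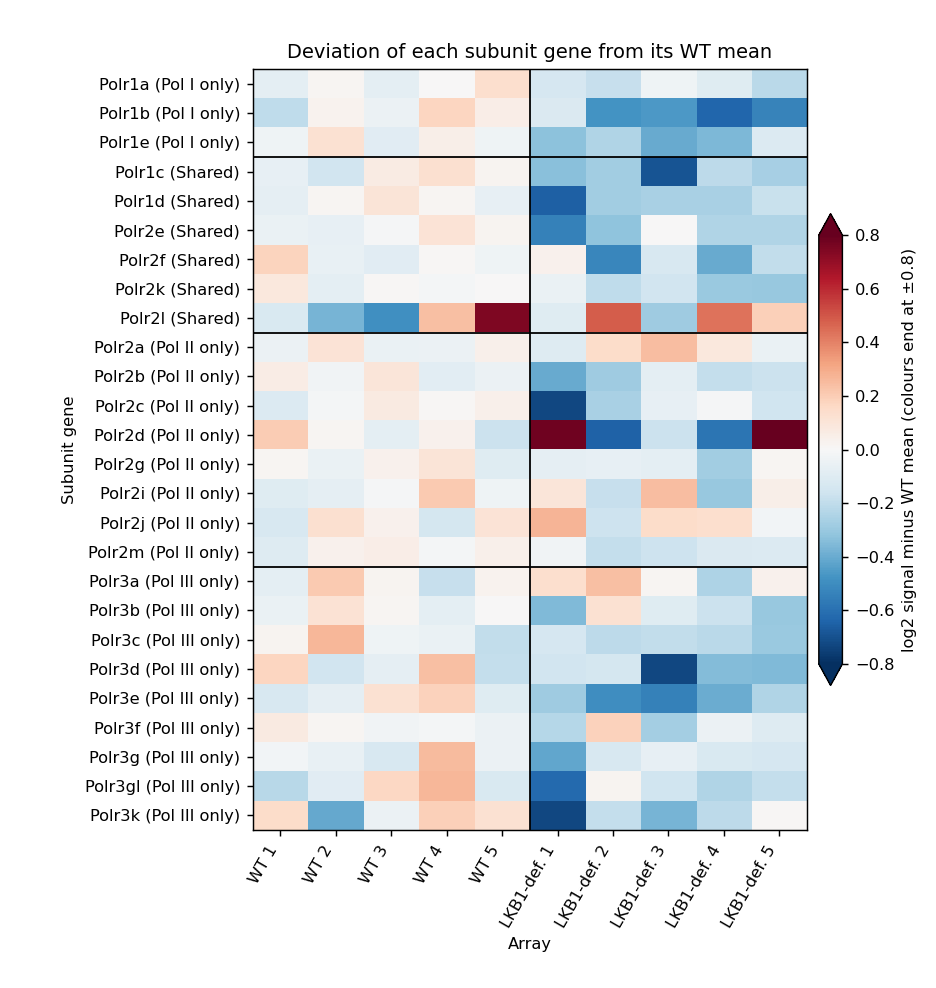
Heat map of the log2 signal of each of the 26 subunit genes (rows, ordered by polymerase) on each of the 10 arrays (columns), as the deviation from the gene's mean over the 5 WT arrays, with colours ending at 0.8 in either direction. Blue fields prevail on the LKB1-deficient arrays, where 12 to 19 of the 26 genes were below the lowest WT array, and Polr2d stands out with both colours in the LKB1-deficient group. The share of all genes below the lowest WT array was not counted per array.

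Counted per array, the number of members below the whole WT range was 14 on LKB1-deficient array 1, 16 on array 2, 12 on array 3, 19 on array 4 and 17 on array 5. The number above the WT range was 2, 4, 3, 1 and 1 on the same arrays. The share of all genes outside the WT range was not counted per array. Of the genes above the dimmest 40%, 58.2% had estimates below 0, so the counts cannot be read as particular to the subunits. Arrays 2 and 3 had macrophage and B cell marker means within the WT range, but single markers went both ways. Lyz2, Itgam and Itgax were above every WT array on both, while others, such as Hmox1 on array 2, were below. The NK marker mean of array 3, at 5.59, was above the highest WT array at 5.42. The part of other cell types in these counts was not tested. The spread within a group was larger in LKB1-deficient cells for 20 of the 26 members, and for 68.8% of all genes. Within WT the SD of a member ranged from 0.047 to 0.50, with Polr2l the highest, and within LKB1-deficient cells from 0.057 to 1.01, with Polr2d the highest.

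The groups did not overlap for 4 of the 26 members, Polr1c, Polr1d, Polr1e and Polr3e, each below WT, and 0 lay above it without overlap. Over all genes 3.71% lay below WT without overlap and 0.996% above, and of the genes above the dimmest 40%, 5.99% lay below. The bases upstream of these 4 genes, of Polr1b, which had the largest difference, and of Polr2a, whose estimate was on the other side of 0, show what short elements their promoters hold. They are printed 5′ to 3′ on the strand of the gene, from 250 bases before the RefSeq start to the base before it (GRCm38.p6). Capitals mark matches, on either strand, to 7 elements. The E-box bound by Myc and Max was searched as CACGTG, the core of the site of ETS family factors as CCGGAA, and the GC box bound by Sp1 as GGGCGG. The TATA box near which polymerase II starts was searched as TATAAA, and the site of the factor NF-Y as CCAAT. The NRF1 element and the B box, an internal promoter element of transfer RNA genes read by polymerase III, were searched as their longer usual motifs.
Polr1b, chr2:129100746-129100995, plus strand: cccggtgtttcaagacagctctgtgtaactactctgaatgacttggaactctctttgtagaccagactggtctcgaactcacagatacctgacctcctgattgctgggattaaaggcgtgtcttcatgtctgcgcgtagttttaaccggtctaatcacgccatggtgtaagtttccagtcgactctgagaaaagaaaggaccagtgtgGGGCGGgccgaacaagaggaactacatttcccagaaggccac
Polr1c, chr17:46248046-46248295, minus strand: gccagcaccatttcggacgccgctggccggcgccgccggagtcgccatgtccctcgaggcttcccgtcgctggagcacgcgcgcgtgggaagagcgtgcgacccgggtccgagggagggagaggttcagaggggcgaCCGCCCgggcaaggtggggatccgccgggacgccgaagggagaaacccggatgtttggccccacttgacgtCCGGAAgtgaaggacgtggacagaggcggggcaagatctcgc
Polr1d, chr5:147077096-147077345, plus strand: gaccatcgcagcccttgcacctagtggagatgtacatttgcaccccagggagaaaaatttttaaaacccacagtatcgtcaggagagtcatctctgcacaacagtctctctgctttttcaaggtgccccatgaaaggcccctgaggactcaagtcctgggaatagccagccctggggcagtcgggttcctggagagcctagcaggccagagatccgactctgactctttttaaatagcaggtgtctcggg
Polr1e, chr4:45018359-45018608, plus strand: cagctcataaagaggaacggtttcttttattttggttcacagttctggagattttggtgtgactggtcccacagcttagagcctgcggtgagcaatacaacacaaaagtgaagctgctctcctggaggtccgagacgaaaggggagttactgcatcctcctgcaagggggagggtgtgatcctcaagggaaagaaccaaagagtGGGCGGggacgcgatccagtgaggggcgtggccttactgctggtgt
Polr3e, chr7:120917528-120917777, plus strand: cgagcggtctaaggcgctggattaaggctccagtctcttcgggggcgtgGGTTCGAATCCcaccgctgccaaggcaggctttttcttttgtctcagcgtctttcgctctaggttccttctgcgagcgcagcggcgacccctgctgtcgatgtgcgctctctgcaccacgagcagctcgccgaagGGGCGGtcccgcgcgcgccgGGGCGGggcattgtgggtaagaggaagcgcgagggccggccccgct
Polr2a, chr11:69758634-69758883, minus strand: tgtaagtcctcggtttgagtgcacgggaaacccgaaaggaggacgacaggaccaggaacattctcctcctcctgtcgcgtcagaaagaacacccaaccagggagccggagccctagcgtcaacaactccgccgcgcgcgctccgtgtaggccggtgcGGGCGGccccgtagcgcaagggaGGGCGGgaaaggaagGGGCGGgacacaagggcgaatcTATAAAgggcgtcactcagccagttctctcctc

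Polr1b, Polr1c, Polr1e, Polr3e and Polr2a each had a GC box, at -42 in Polr1b, -113 in Polr1c, -46 in Polr1e, -66 and -46 in Polr3e and -93, -70 and -55 in Polr2a, counting back from -1 at the base before the start. Polr1c also held an ETS core at -42, and Polr2a a TATA box at -33. Polr1d held no match to any of the 7 elements. The window of Polr3e, a polymerase III subunit gene, overlaps a transfer RNA gene that RefSeq names n-TLaag4, and it holds a B box at -201. Of the 27 members, 21 had RefSeq windows, 22 windows in all, and the shares below are over these 22 and over all 32851 windows. A GC box was in 59.1% of member windows against 32.7% of all, an ETS core in 40.9% against 12%, an E-box in 9.09% against 6.02%, the letters CCAAT in 31.8% against 33.8%, a TATA box in 9.09% against 12.4%, and an NRF1 element in 0 against 0.782%. The B box was in 1 member window, that of Polr3e, and in 0.103% of all, and a transfer RNA gene overlapped 1 member window and 0.0244% of all. The members' windows had a median GC content of 60.4% against 52.4%, which bears on GC-rich elements. No matches of different elements overlapped in these windows. The matches are letters only, and binding was not measured.

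Polymerase I subunits all had estimates below 0, with a median of -0.29 over 3 genes. Polr1a encodes the largest, catalytic subunit. Its log2 signal on WT arrays 1 to 5 was 7.82, 7.91, 7.82, 7.90 and 8.03, and on LKB1-deficient arrays 1 to 5 it was 7.76, 7.71, 7.86, 7.80 and 7.68. Of the 5 LKB1-deficient arrays, 4 were below every WT array and array 3 was within their range. The difference was -0.13 (SE 0.08, limma adjusted p = 0.507).

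Polr1b encodes the second catalytic subunit, which closes the active centre with the product of Polr1a. WT arrays were at 6.43, 6.66, 6.59, 6.80 and 6.69, and LKB1-deficient arrays at 6.52, 6.16, 6.17, 5.999 and 6.10. LKB1-deficient array 1 lay among the WT arrays and the other 4 below all of them. The difference of -0.44 (SE 0.11, 95% confidence interval -0.69 to -0.20, adjusted p = 0.0846) was the lowest of any member. It passed without LKB1-deficient array 1, the highest of its group (-0.53, adjusted p = 0.0157), with array medians subtracted (-0.50, adjusted p = 0.0411) and with array quality weights (-0.49, adjusted p = 0.0269). Over all alternatives the adjusted p ranged from 0.0157 to 0.56, the highest for replicates 1 to 3 alone.

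Polr1e encodes a peripheral subunit that pairs with the product of Cd3eap and takes part in initiation. WT arrays were at 5.84, 5.995, 5.78, 5.92 and 5.84, and LKB1-deficient arrays at 5.55, 5.64, 5.47, 5.52 and 5.76. Every LKB1-deficient array was below every WT array, with array 5 at 5.76 just under WT array 3 at 5.78. The difference was -0.29 (SE 0.09, adjusted p = 0.149).

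The remaining polymerase I subunits carry other symbols on the platform and lay on the same side. Znrd1, the small subunit that acts in RNA cleavage, was at 8.13, 8.14, 8.28, 8.06 and 8.03 on WT arrays and at 7.47, 7.77, 7.84, 7.76 and 7.98 on LKB1-deficient arrays. Its groups did not overlap, with a difference of -0.36 (SE 0.10, adjusted p = 0.126). Cd3eap, the partner of Polr1e, had a difference of -0.31 (adjusted p = 0.226) with 4 of 5 LKB1-deficient arrays below WT. Twistnb, a stalk subunit, had a difference of -0.30 (adjusted p = 0.259), also with 4 of 5 below. Neither passed.

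**Figure D2:**
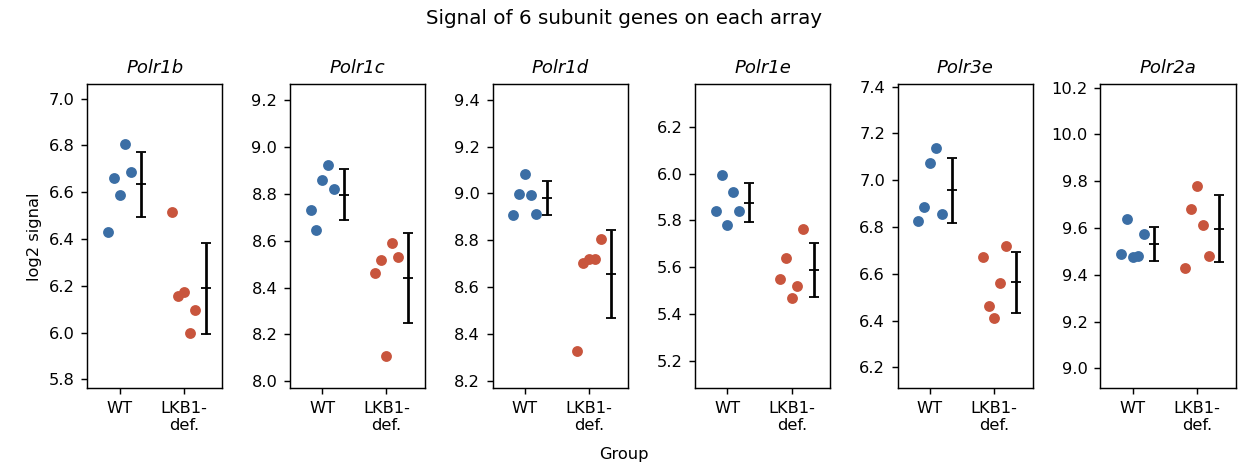
Log2 signal of 6 subunit genes on each array (points, in order of replicate from left to right; blue WT, red LKB1-deficient), with the mean and SD of 5 arrays beside them; every panel spans 1.3 log2 units. Polr1c, Polr1d, Polr1e and Polr3e show no overlap between the groups, Polr1b has LKB1-deficient array 1 at 6.52 among the WT values, and the Polr2a groups overlap.

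The shared subunits include Polr1c and Polr1d, the assembly platform of polymerases I and III. Polr1c was at 8.73, 8.64, 8.86, 8.93 and 8.82 on WT arrays and at 8.46, 8.52, 8.11, 8.59 and 8.53 on LKB1-deficient arrays. All of the second group lay below the first, and array 3 was the lowest of it. The difference was -0.36 (SE 0.11, 95% confidence interval -0.59 to -0.13, adjusted p = 0.143).

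Polr1d, whose product binds that of Polr1c, was at 8.91, 8.997, 9.08, 8.99 and 8.91 on WT arrays and at 8.32, 8.70, 8.72, 8.72 and 8.80 on LKB1-deficient arrays. The groups were again apart, with LKB1-deficient array 1 the lowest. The difference was -0.32 (SE 0.10, 95% confidence interval -0.54 to -0.10, adjusted p = 0.162). In polymerase II the same place in the enzyme is taken by the products of Polr2c and Polr2j. Polr2c had a difference of -0.24 (adjusted p = 0.426) and Polr2j of 0.07 (adjusted p = 0.811), and the contrast between the platforms was not tested.

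Of the 4 measured subunits common to all nuclear polymerases, Polr2e (-0.27, adjusted p = 0.253), Polr2f (-0.24, adjusted p = 0.361) and Polr2k (-0.20, adjusted p = 0.285) each had 4 of 5 LKB1-deficient arrays below every WT array. The exception was array 3 for Polr2e, at 8.60, and array 1 for Polr2f and Polr2k, at 8.03 and 10.11. Polr2l, at 4.69 ± 0.50 for WT and 4.84 ± 0.33 for LKB1-deficient arrays (SD, n = 5 each), lay near the array medians, and no detection call tells such a signal from background. Its difference of 0.15 was within its spread (adjusted p = 0.829). Polr2k was the only member with more than 1 probe set. Its 4 probe sets had differences of -0.44, -0.16, -0.20 and -0.11, all below 0 and none past the threshold. The median over the 6 shared members was -0.26.

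Polymerase II subunits were spread around a median of -0.06, the nearest to 0 of the classes, with 5 of 8 estimates below 0. Polr2a encodes the largest subunit, which carries the catalytic site and the repeated carboxy-terminal tail that is phosphorylated during transcription. WT arrays were at 9.49, 9.64, 9.48, 9.48 and 9.57, and LKB1-deficient arrays at 9.43, 9.68, 9.78, 9.61 and 9.48. The groups overlapped, with 2 LKB1-deficient arrays above and 1 below the WT range. The difference was 0.07 (SE 0.09, 95% confidence interval -0.13 to 0.26, adjusted p = 0.804).

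Polr2b encodes the other catalytic subunit. It was at 8.81, 8.72, 8.85, 8.67 and 8.70 on WT arrays and at 8.35, 8.46, 8.67, 8.56 and 8.58 on LKB1-deficient arrays. LKB1-deficient array 3 reached the lowest WT array, and the other 4 were below. The difference was -0.23 (SE 0.09, 95% confidence interval -0.42 to -0.035, adjusted p = 0.262). It was the only polymerase II member at an unadjusted p under 0.05.

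The remaining polymerase II members had differences of -0.10 for Polr2g, a stalk subunit (adjusted p = 0.671), -0.02 for Polr2i, which acts in elongation and proofreading (adjusted p = 0.964), and -0.12 for Polr2m, a protein that associates with the enzyme and restrains its initiation (adjusted p = 0.524). Polr2m had 4 of 5 LKB1-deficient arrays below the WT range. Polr2d, the stalk partner of Polr2g, differed most between arrays of 1 genotype and is described for that reason. It was at 7.27, 7.08, 6.99, 7.10 and 6.89 on WT arrays and at 7.84, 6.42, 6.90, 6.48 and 8.79 on LKB1-deficient arrays. LKB1-deficient arrays 1 and 5 were above all WT arrays and arrays 2 and 4 below them, so the difference of 0.22 (95% confidence interval -0.59 to 1.04, adjusted p = 0.845) describes no shared direction. The pseudogene Polr2d-ps2, at 3.86 ± 0.27 for WT and 4.11 ± 0.21 for LKB1-deficient arrays (SD, n = 5 each), was below the array medians (adjusted p = 0.481).

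**Figure D3:**
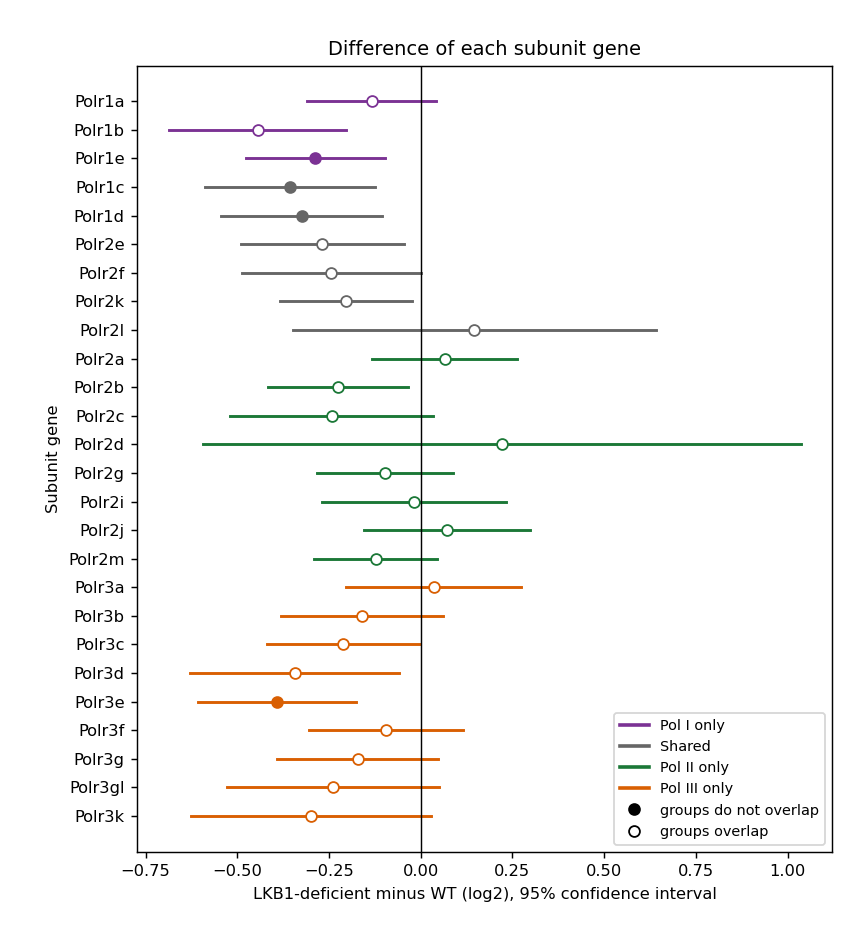
Difference of each of the 26 subunit genes (LKB1-deficient minus WT, log2) with its 95% confidence interval from limma, coloured by polymerase; filled points mark genes whose groups do not overlap. The 4 filled points, Polr1c, Polr1d, Polr1e and Polr3e, lie between -0.39 and -0.29. The polymerase II genes lie on both sides of 0. So do the shared and the polymerase III genes, with Polr2l at 0.15 and Polr3a at 0.04.

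Polymerase III subunits had a median of -0.21 with 8 of 9 estimates below 0. The catalytic subunits come first. Polr3a, the largest, was at 6.92, 7.21, 7.02, 6.81 and 7.03 on WT arrays and at 7.13, 7.24, 7.01, 6.75 and 7.03 on LKB1-deficient arrays. The groups covered each other, and the difference was 0.04 (SE 0.11, 95% confidence interval -0.20 to 0.27, adjusted p = 0.925). The estimate fell to the other side of 0 under 4 alternatives, among them the one with array medians subtracted.

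Polr3b, the other catalytic subunit, was at 8.07, 8.25, 8.15, 8.05 and 8.13 on WT arrays and at 7.78, 8.25, 8.03, 7.96 and 7.83 on LKB1-deficient arrays. Here 4 LKB1-deficient arrays were below the WT range and array 2 was just above it. The difference of -0.16 (SE 0.10, adjusted p = 0.524) went to 0.01 without LKB1-deficient arrays 1, 4 and 5 and to 0.02 with the macrophage and B cell marker means as covariates.

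Polr3d and Polr3e encode a heterodimer at the periphery of polymerase III that acts in initiation and termination. Polr3e was at 6.83, 6.88, 7.08, 7.14 and 6.86 on WT arrays and at 6.67, 6.46, 6.41, 6.56 and 6.72 on LKB1-deficient arrays. The groups did not overlap. The difference was -0.39 (SE 0.10, 95% confidence interval -0.61 to -0.18, adjusted p = 0.0868), and of 23 alternatives it passed in 1, with array medians subtracted (-0.44, adjusted p = 0.0437). Over all of them the adjusted p ranged from 0.0437 to 0.417. Without LKB1-deficient arrays 1, 4 and 5, which included the highest of the group, it was -0.52 (adjusted p = 0.0688). Polr3d had a difference of -0.34 (SE 0.13, adjusted p = 0.253) with 3 LKB1-deficient arrays below the WT range and array 3 the lowest at 5.95.

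Polr3c, Polr3f and either Polr3g or Polr3gl make up the subcomplex that recognises the initiation factors of polymerase III. Polr3g, the form known from pluripotent and dividing cells, was at 6.32, 6.28, 6.21, 6.59 and 6.30 on WT arrays and at 5.93, 6.22, 6.27, 6.22 and 6.20 on LKB1-deficient arrays. Its paralog Polr3gl, the more widely expressed form, was at 7.75, 7.87, 8.13, 8.23 and 7.84 and at 7.35, 7.99, 7.81, 7.72 and 7.78. In both genes LKB1-deficient array 1 was the lowest of all arrays and 3 LKB1-deficient arrays lay within the WT range. The differences were -0.17 for Polr3g (SE 0.10, adjusted p = 0.489) and -0.24 for Polr3gl (SE 0.13, adjusted p = 0.464). A difference between the paralogs was not tested.

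Of the remaining polymerase III members, Polr3c had a difference of -0.21 (adjusted p = 0.347) and 4 LKB1-deficient arrays below the WT range, array 3 by less than the digits shown here. Polr3f had -0.09 (adjusted p = 0.72), with array 2 above and 3 arrays below that range. Polr3k, the small subunit for RNA cleavage and termination, had -0.30 (adjusted p = 0.407), and array 1 at 7.17 was the only one below it. Crcp, a polymerase III stalk subunit under another symbol, was at 8.37, 8.41, 8.31, 8.34 and 8.39 on WT arrays and at 8.66, 7.71, 7.86, 7.92 and 8.61 on LKB1-deficient arrays. Arrays 1 and 5 were above the WT range, as for Polr2d, and arrays 2, 3 and 4 below it. Its difference was -0.21 (95% confidence interval -0.60 to 0.17, adjusted p = 0.647).

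Set side by side, the class medians were -0.29 for polymerase I (3 genes), -0.26 for shared subunits (6), -0.21 for polymerase III (9) and -0.06 for polymerase II (8). These are descriptions over few genes, and no class was tested against another. Averaged over the genes of a class, the deviation from the WT mean was -0.36 to -0.19 on LKB1-deficient arrays and -0.10 to 0.07 on WT arrays for polymerase I. For shared subunits it was -0.28 to -0.16 and -0.12 to 0.12, and for polymerase III -0.31 to -0.066 and -0.061 to 0.089, where LKB1-deficient array 2 was next to the lowest WT array. For polymerase II it was -0.21 to 0.16 against -0.027 to 0.017, so the groups overlapped. Without Polr2d the polymerase II range was -0.14 to 0.035 on LKB1-deficient arrays and -0.059 to 0.031 on WT arrays. LKB1-deficient array 3, at 0.035, was then above every WT array, and the rest of its group lay below every WT array.

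The order of the class medians was looked at within the sets of running codes that the sample descriptions carry, whose meaning is not stated: replicates 1 to 3 of both groups form set 1, and replicates 4 and 5 form set 2. In set 1 the medians were -0.28 for polymerase I, -0.23 for shared subunits, -0.20 for polymerase III and -0.06 for polymerase II. In set 2 they were -0.24, -0.29, -0.23 and -0.11. Polymerase II was thus nearest to 0 in either set, while the order of the other classes was not kept. Polymerase II was not nearest to 0 with marker covariates or with fewer arrays, but its median and that of polymerase III then lay close together. With the macrophage and B cell marker means as covariates the medians were -0.31 for polymerase I, -0.23 for shared subunits, -0.11 for polymerase III and -0.13 for polymerase II. Without LKB1-deficient arrays 1, 4 and 5 they were -0.32, -0.22, -0.096 and -0.12. In both, polymerase III was nearest to 0 and polymerase I farthest below it. The fit without those arrays kept only LKB1-deficient arrays 2 and 3. Array 2 had the highest polymerase III mean deviation of its group, -0.066. The order of polymerases II and III was not tested.

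**Figure D4:**
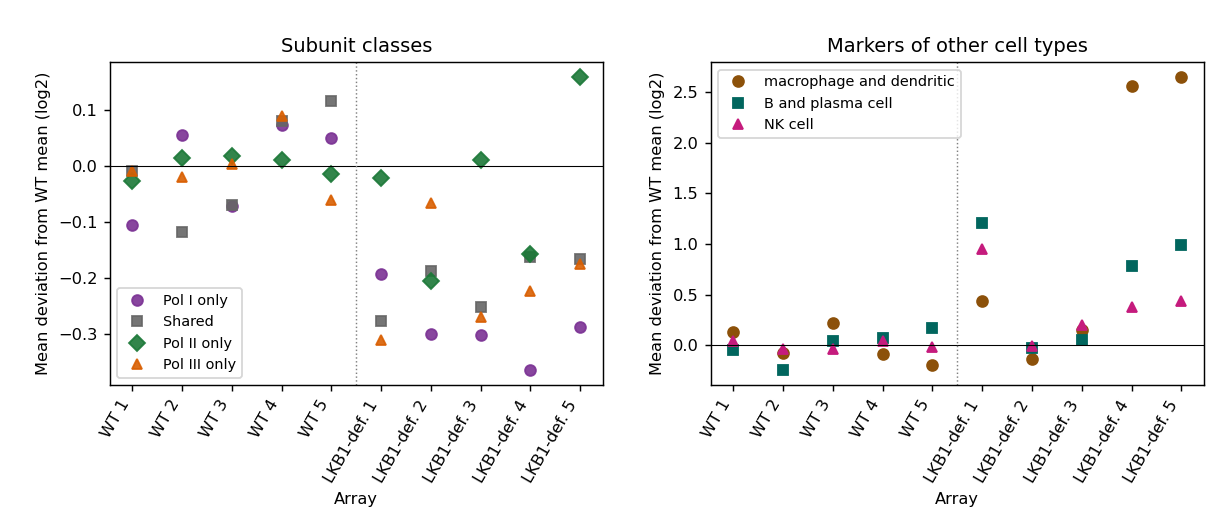
Left, mean deviation from the WT mean (log2) of the genes of each subunit class on each array; right, the same for markers of macrophages and dendritic cells, B and plasma cells and NK cells. Polymerase I and shared subunits lie between -0.36 and -0.16 on all LKB1-deficient arrays, and the marker means of other cell types rise above the WT arrays mainly on LKB1-deficient arrays 1, 4 and 5. Within the NK list, Nkg7 was lower than in WT.

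The factors that bring the polymerases to their genes lay mostly below WT too, with 1 gene past the test. Of the 29 measured general initiation factors of polymerase II, 24 had estimates below 0 with a median of -0.13, and 1 fell, where 0.83% of all genes were called lower. This was Mnat1, the assembly subunit of the kinase that phosphorylates the tail of the Polr2a product. It was at 8.76, 8.42, 8.44, 8.71 and 8.53 on WT arrays and at 8.13, 8.02, 8.18, 7.95 and 8.05 on LKB1-deficient arrays, with no overlap. The difference was -0.51 (SE 0.10, adjusted p = 0.0303), a level 1.42-fold lower than in WT. The call was not stable. In alternatives added after the data were seen, Mnat1 kept its direction in 23 of 23 and its call in 9, with adjusted p from 0.0154 to 0.362. Of the arrays left out in turn, only LKB1-deficient arrays 1 and 3 left the call standing (adjusted p = 0.0216 and 0.0467), and without each of the 8 others it was 0.0516 to 0.0864. The call was also lost with the marker covariates (-0.49, adjusted p = 0.1), on omitting LKB1-deficient arrays 1, 4 and 5 (-0.47, adjusted p = 0.116) and after a second quantile normalization (-0.44, adjusted p = 0.0881).

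The initiation factors of polymerase I had estimates below 0 in 7 of 7 measured genes, with a median of -0.18 and 0 called. Ubtf, which opens ribosomal DNA for transcription, had a difference of -0.34 (adjusted p = 0.27), and Taf1a, part of its promoter selectivity factor, of -0.30 (adjusted p = 0.311). In the polymerase II elongation list 19 of 22 were below 0 with a median of -0.11 and 0 called, and the smallest p belonged to Larp7 (-0.38, adjusted p = 0.144), which holds the 7SK RNA that restrains elongation, and to Leo1 (-0.24, adjusted p = 0.329), of the Paf1 complex. The polymerase III factors had the median nearest to 0 of these lists, -0.049, with 12 of 15 below 0 and 0 called. Brf2 (-0.48, adjusted p = 0.345) and Snapc2 (-0.30, adjusted p = 0.253), which serve polymerase III genes with upstream promoters, had the smallest p there.

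Genes for the assembly of the polymerases were below 0 in 14 of 14 cases, with a median of -0.13 and 0 called. Ruvbl1, an ATPase of the chaperone complex that builds them, had a difference of -0.48 (adjusted p = 0.111), and Rpap3, its adaptor, of -0.31 (adjusted p = 0.24). The mitochondrial transcription genes, which serve a separate polymerase, had 5 of 5 below 0, a median of -0.27 and 0 called. Tfam, which packages mitochondrial DNA, had -0.54 (adjusted p = 0.201), and Tfb1m, an RNA methyltransferase of mitochondrial ribosomes, -0.27 (adjusted p = 0.244), with no overlap between its groups. Estimates were below 0 for 58.2% of brighter genes and for 49.2% of all genes. The share was 80.8% for the 26 subunit genes, 82.8% for general factors, 86.4% for elongation factors and 80% for polymerase III factors. It was 100% for the subunits under other symbols, the polymerase I initiation factors, the assembly genes and the mitochondrial transcription genes. How many genes of the lists other than the 26 subunit genes lay among the brighter ones was not counted. No list was tested against another.

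**Figure D5:**
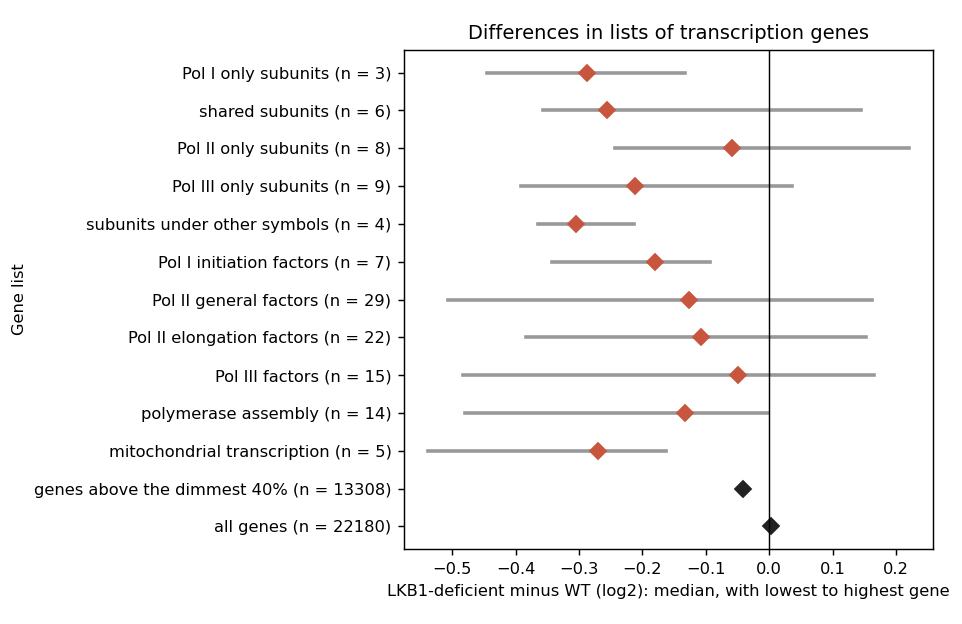
Median difference (diamonds; LKB1-deficient minus WT, log2) of the subunit classes and of 7 further lists of transcription genes, with lines from the lowest to the highest gene and the number of measured genes; black diamonds are the medians of all genes and of those above the dimmest 40%. The medians lie between -0.30 for subunits under other symbols and -0.049 for polymerase III factors, all below the black diamonds.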

How the data were processed

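Log2 signals of 41345 probe sets on 10 arrays were used, as deposited. Per the submitters' processing notes, the authors used RMA (robust multi-array average) and Partek 6.6. The settings and the genome build were not stated. Per the labels' protocols, nanogram amounts of total RNA were amplified before labelling, which can distort levels. Quantile normalization, a part of RMA, hides a shift shared by all transcripts. The platform annotation gave 23521 probe sets 1 symbol, 1814 several and 16010 none, which left 22180 genes. RefSeq (GRCm38.p6) held all 27 members by Entrez identifier.

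All 10 arrays were fitted by lmFit and eBayes of limma 3.58.1 (R 4.3.3), no covariate, 4.36 prior degrees of freedom and Benjamini-Hochberg adjustment over 22180 genes; a call is an adjusted p under 0.05, and all adjusted p-values are from limma. Differences are LKB1-deficient minus WT. Precision is limited by how many arrays there are. The code was tested on simulated data. Members, lists and alternatives were chosen with earlier results of these data known. Values on every array are given for members called or without overlap, the catalytic subunits, Polr3g and Polr3gl; of each other list, up to 4 called genes or else the 2 with the smallest p. Alternatives were other probe set choices, filters, scalings, variance models, blocks, covariates and arrays left out.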

Additional observations from a re-analysis of the deposited data

Results flagged for a closer look

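Over the 43 genes for which values were listed (the members, the other named transcription genes and Stk11), both groups of 5 arrays were searched for an array far from the rest, by the gap to its neighbour as a share of the range. The search covered 86 groups, and 6 arrays were found where chance gives about 1 in 20 groups. Polr1c was at 8.11 on LKB1-deficient array 3, with the next array at 8.46, and its difference without that array was -0.27 (adjusted p = 0.183). Polr1d was at 8.32 on LKB1-deficient array 1, with the next at 8.70, and its difference without it was -0.24 (adjusted p = 0.146). Polr3g had its lowest value, 5.93, on LKB1-deficient array 1 and its highest, 6.59, on WT array 4, and its difference was -0.11 without each of them in turn (adjusted p = 0.625 and 0.702). Ubtf was at 7.95 on LKB1-deficient array 1, below the next array at 8.55. Tfb1m was at 6.65 on WT array 1, above the next at 6.39. Of the 6 values, 3 belong to LKB1-deficient array 1, which also had the lowest Treg marker mean, 9.63, and the highest B and plasma cell marker mean, 6.40. The part of these markers in the values was not tested.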

How the results depend on the processing

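No member was called higher under any of the 24 alternatives. The number called lower was 0 throughout except for 2 with array medians subtracted (Polr1b and Polr3e, with 1.64% of all genes called lower), 1 with array quality weights (Polr1b, 1.48%) and 0 to 1 over the fits that leave out 1 array each. The members' median was -0.26 with array medians subtracted, -0.15 with a second quantile normalization and -0.22 to -0.14 with 1 array left out, the last without LKB1-deficient array 1. The polymerase III median was -0.11 with the marker covariates, -0.096 on omitting LKB1-deficient arrays 1, 4 and 5, and -0.26 to -0.14 with 1 array left out. The polymerase II median ran from -0.13 to 0.00031, turning its sign without LKB1-deficient array 4. The polymerase I median (-0.34 to -0.24 over all alternatives) and the shared median (-0.31 to -0.19) kept their sign and moved by less than the spread between arrays. Polr3a turned to -0.015 with array medians subtracted, and -0.031 in set 2 alone, and with 1 array left out it ran from -0.016 to 0.11, below 0 without WT array 4 (-0.011) and LKB1-deficient array 2 (-0.016), while Polr3b turned to 0.024 with the covariates and 0.011 on omitting those 3 arrays. The causes were not tested. Over all genes 22% of calls were higher (52 of 236), against 12.5% with array medians subtracted and 39.4% with a second quantile normalization. Same-numbered arrays of the groups correlated at -0.0788 to 0.102 in their deviations, and 1 of 5 WT arrays correlated best with its own number. Markers of other cell types, which differed between LKB1-deficient arrays, also enter these deviations, so the correlations cannot decide whether the numbers pair samples. The labels name no pairing, and the main fit used none. With the replicate number as a block 0 members were called, Mnat1 lost its call (adjusted p = 0.108), and 36 genes were lower and 14 higher in place of 184 and 52. The table has no detection calls, which limits Polr2l most.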

Other observations

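Polr2d and Crcp encode stalk subunits of different polymerases, and both had LKB1-deficient arrays above and below the WT range. Polr2d was above all WT arrays on LKB1-deficient arrays 1 and 5, at 7.84 and 8.79, and Crcp on the same arrays, at 8.66 and 8.61. On arrays 2 and 4 both were below all WT arrays, at 6.42 and 6.48 for Polr2d and at 7.71 and 7.92 for Crcp. On array 3 they differed: Crcp, at 7.86, was below its WT range, and Polr2d, at 6.90, was within its own. Polr2g, the partner of Polr2d, was at 9.67 and 9.76 on arrays 1 and 5, within its WT range of 9.64 to 9.85. The pair was noticed in these data after the values were seen, and it is given as values only.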
